A study of Mus musculus with 11 samples.

Results

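The 10 genes described here belong to the NRF2 antioxidant pathway and the metallothioneins, and were measured by RNA sequencing of mouse kidney glomeruli. They are the transcription factor Nfe2l2 (NRF2), its inhibitor Keap1, 6 enzyme genes that NRF2 is known to activate (Nqo1, Hmox1, Gclc, Gclm, Txnrd1 and Srxn1) and the metallothionein genes Mt1 and Mt2. They were chosen by symbol, with earlier results of these data known. All 10 were found among the 13734 genes of the deposited count table, as 17 of its 22320 transcripts. The glomeruli came from db/db mice, which are homozygous for a leptin receptor mutation and become obese and diabetic, and from heterozygous db/m littermates. The mice were labelled as male, and the labels name 2 backgrounds, BKS and C57BL/6J. From 10 weeks of age they received either puerarin, an isoflavone glycoside of kudzu root, by oral gavage at 20 mg per kg body weight per day in 5% DMSO, or 5% DMSO alone, for 6 weeks. There were 4 libraries from db/m mice on vehicle, 4 from db/db mice on vehicle and 3 from db/db mice on puerarin. All groups received DMSO, so no group was untreated.

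NRF2 is held in the cytoplasm and marked for degradation by KEAP1. Oxidants and electrophiles modify KEAP1, and NRF2 then accumulates in the nucleus and binds antioxidant response elements together with small MAF proteins. The control is mainly on the protein, so the Nfe2l2 transcript is not a direct reading of NRF2 activity. Metallothioneins are small cysteine-rich proteins that bind zinc, copper and cadmium. Their genes respond to the zinc-sensing factor MTF1 at metal response elements, and also to glucocorticoids and oxidants.

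Libraries were named in 1 of 2 forms, with an S number (5 libraries) or with a group tag and a number (6 libraries), and both forms occur in each group. Total counts ran from 35369703 to 44244460 per library. The labels do not say whether libraries came from separate animals, so p-values measure only the spread between these libraries. Podocyte markers summed to between 11952 and 17498 CPM (counts per 1000000 counts of the library, with its size adjusted by TMM), with none of the 10 at 0, and glomerular endothelial markers to between 4930 and 10068 CPM. Other cells were present too. The 15 proximal tubule markers summed to between 969 and 6883 CPM and the 15 myeloid markers to between 133 and 1221 CPM, with none at 0. Puerarin libraries 2 and 3 went against their male label: Xist, the X-inactivation transcript, was at 528 and 819 CPM there and at 6.47 CPM or less in the other 9, and the Y-linked Ddx3y was at 3.06 and 0.909 CPM there and at 50.3 CPM or more elsewhere. Among db/m libraries, S184 and S185 stood apart, for example in Fkbp5, a glucocorticoid-induced chaperone gene, at 33.4 and 39.8 CPM against 158 and 142 CPM.

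The sequence before the start of each metallothionein gene is shown because these were the 2 genes with the largest fitted differences between db/db and db/m glomeruli. Each run holds the 250 bases before the annotated start and the first 30 after it, from RefSeq on GRCm38.p6, plus strand, at chr8:94178839-94179118 for Mt1 and chr8:94172368-94172647 for Mt2. Capitals mark matches on either strand to a metal response element core (TGCACNC or TGCGCNC) or to an antioxidant response element core (TGACNNNGC).
Mt1: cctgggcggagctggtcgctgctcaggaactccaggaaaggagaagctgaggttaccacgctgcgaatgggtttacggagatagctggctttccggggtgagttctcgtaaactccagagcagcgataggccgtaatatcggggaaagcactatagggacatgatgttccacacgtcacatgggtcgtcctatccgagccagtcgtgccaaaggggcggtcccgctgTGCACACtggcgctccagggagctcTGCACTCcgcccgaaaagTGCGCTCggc
Mt2: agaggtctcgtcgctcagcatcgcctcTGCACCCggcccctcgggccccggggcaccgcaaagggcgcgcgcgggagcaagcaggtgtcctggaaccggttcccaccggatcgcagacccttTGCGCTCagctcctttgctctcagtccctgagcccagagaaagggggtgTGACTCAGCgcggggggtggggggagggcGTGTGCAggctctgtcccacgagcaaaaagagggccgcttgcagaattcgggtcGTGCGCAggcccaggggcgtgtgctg
Over the full window of 300 bases, which ends 50 bases after the start, Mt2 held 4 metal response cores and 1 antioxidant response core, TGACTCAGC, and no matches overlapped. The Mt1 window held 3 metal response cores and no antioxidant response core. Bases beyond the windows were not searched, so cores there would not be counted for either gene. Of 32841 such windows in the table, 25.7% held at least 1 metal response core, 1.97% at least 3 and 0.518% at least 4, and 12.4% held an antioxidant response core. Of the 8 members found in the table, an antioxidant response core was also present in the windows of Nfe2l2, Gclm and Srxn1 and in 1 of 3 Txnrd1 windows. The Gclm window also held 3 metal response cores and the Srxn1 window 1. The windows of Keap1 and Nqo1 held neither motif. Such matches are descriptions of letters and do not show binding.

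Both metallothioneins were higher in db/db vehicle than in db/m vehicle glomeruli, Mt2 at 51.3 ± 16.1 CPM (SD, n = 4) against 25.3 ± 7.90 CPM (SD, n = 4) and Mt1 at 124 ± 33.3 CPM (SD, n = 4) against 74.6 ± 23.2 CPM (SD, n = 4), with no overlap between the groups. Neither difference passed the test over all genes. Of the other 8 genes, Hmox1 and Nfe2l2 were also higher without overlap, by smaller amounts, while the means of Keap1, Gclm, Gclc and Txnrd1 were close. None of the 10 genes passed the test in puerarin against db/db vehicle, and Mt2, Hmox1 and Nfe2l2 were above each db/m library in the puerarin libraries too.

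Mt2 (mm10 chr8:94172617-94173567, plus strand) was at 26.9, 13.7, 29.6 and 30.9 CPM in db/m libraries S184, S185, 2 and 3. In db/db vehicle libraries S152, S153, 1 and 3 it was at 41.6, 42.5, 45.7 and 75.3 CPM, and in puerarin libraries S144, 2 and 3 at 35.7, 75.2 and 64.4 CPM. Each of the 7 db/db libraries was therefore above each db/m library. The fitted log2 fold change of db/db vehicle over db/m vehicle was 1.03 (SE 0.21), an interval of 1.47- to 2.83-fold, with adjusted p = 0.135 by edgeR's quasi-likelihood test with Benjamini-Hochberg adjustment over 13734 genes. That test called 6 genes of all, or 0.0437%, at an adjusted p under 0.05, and no member. DESeq2 with the same terms gave Mt2 a log2 fold change of 1.02 with an adjusted p of 0.000928, and it was the 1 member DESeq2 called, among 2.11% of all genes. Without db/db vehicle library 1, the edgeR test called Mt2 (log2 fold change 1.18, adjusted p = 0.0345, among 0.597% of all genes). Over 22 alternative settings the Mt2 difference ran from 0.87 to 1.25 with adjusted p-values from 0.000928 to 0.373, and it was called in 3.

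Mt1 (mm10 chr8:94179088-94180327, plus strand), which lies beside Mt2, was the most abundant of the 10 genes per length, at 138 CPM per kb of transcript in db/m glomeruli against 45.4 for Mt2. It was at 81.6, 40.1, 86.5 and 90.1 CPM in the db/m libraries, in the order above. It was at 104, 104, 113 and 173 CPM in the db/db vehicle libraries and at 89.5, 182 and 118 CPM in the puerarin libraries. The db/db vehicle libraries were all above the db/m libraries, and puerarin library S144 lay just under db/m library 3. The log2 fold change of db/db vehicle over db/m vehicle was 0.74 (SE 0.22, edgeR adjusted p = 0.275). Library S185 was lowest among db/m libraries for both metallothioneins and also had the lowest level of tubule markers in that group. Over 3 tubule lists, that level was −0.90 on a log2 scale relative to the average library. Its loop and distal tubule part was −1.42 and its collecting duct part −1.27, while its proximal tubule part was −0.00062, against −0.80 in db/m library 2. Library 3 of db/db vehicle was highest for both metallothioneins in its group, and its tubule level was 1.05. With the tubule level as a further term, the log2 fold change of Mt2 was 0.88 and edgeR called it (adjusted p = 0.0129, among 0.699% of all genes), and that of Mt1 was 0.61 (adjusted p = 0.0947).

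**Figure D1:**
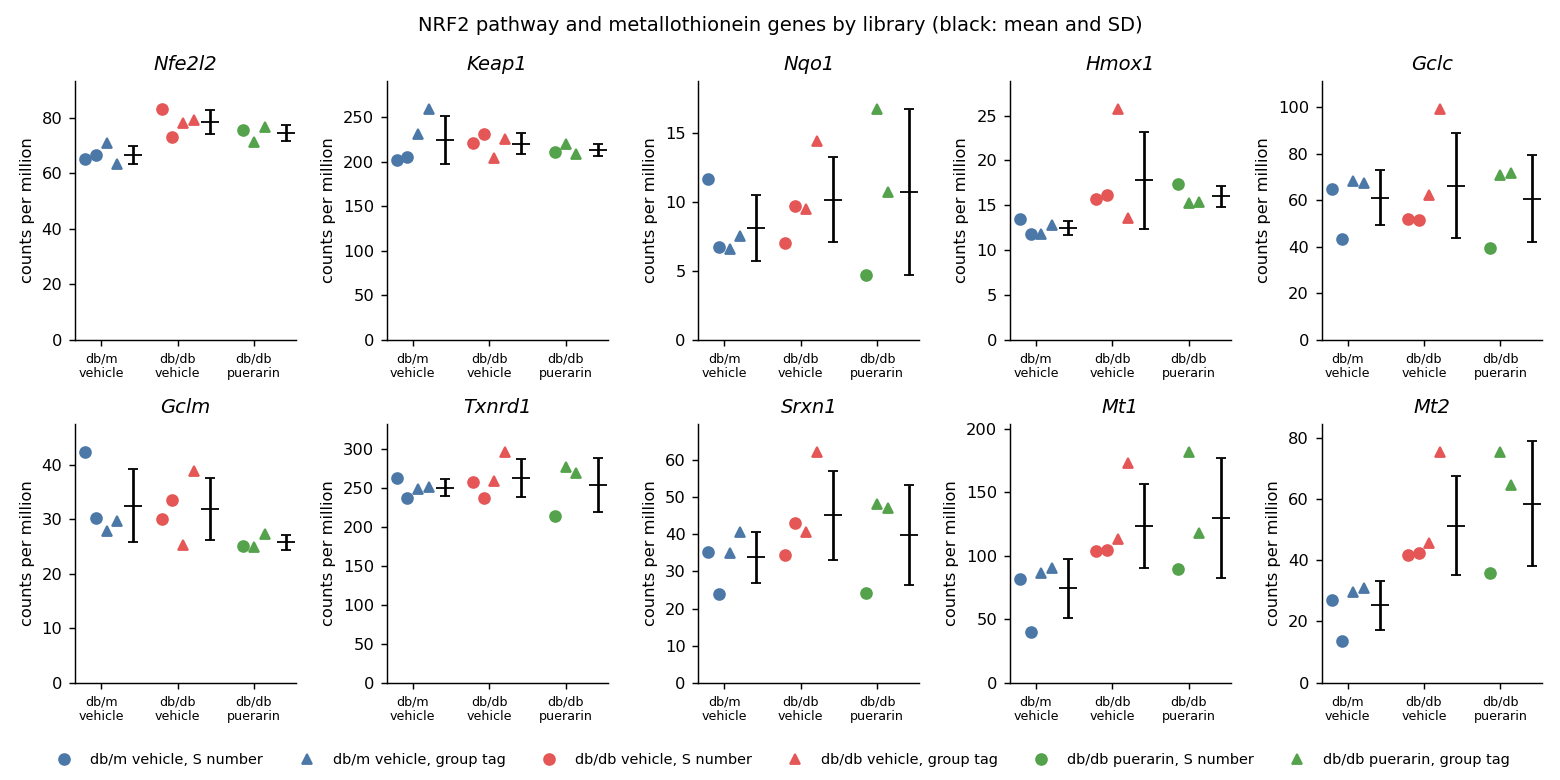
Levels in CPM (vertical axes, from 0) of the 10 genes in 11 libraries, by group on the horizontal axes; circles are libraries named with an S number, triangles those named with a group tag, and black bars the mean and SD. All 7 db/db libraries sit above the 4 db/m libraries for Mt2, Hmox1 and Nfe2l2, while Keap1, Txnrd1 and Gclc overlap in every pair of groups.

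The 2 metallothioneins varied together across libraries, with Pearson's r = 0.97 and Spearman's rho = 0.98 over 11 libraries (each permutation p = 1e-05, the smallest that 100000 resamples can give, and adjusted p = 0.00021 over 21 relations). Without the 2 libraries farthest from the median of Mt2, db/m S185 and db/db vehicle 3, r was 0.93, and within the 6 group-tag libraries it was also 0.93. Their ratio was steadier than either level. Mt2 counts per Mt1 count were 0.329, 0.341, 0.343 and 0.342 in the db/m libraries and 0.401, 0.408, 0.404 and 0.435 in the db/db vehicle libraries. In the puerarin libraries the ratio was 0.399, 0.414 and 0.546. The mean ratio was 0.339 ± 0.00643 (SD, n = 4) in db/m vehicle and 0.412 ± 0.0157 (SD, n = 4) in db/db vehicle, so the groups differed by more than their spread and did not overlap. The ratio does not depend on the scaling between libraries. This ratio was chosen after its values were seen and was given no test. The 95% exact binomial interval, which covers counting error only, was 0.321 to 0.366 for db/m library 2 and 0.378 to 0.425 for db/db vehicle library S152. Puerarin library 3, with an interval of 0.519 to 0.573, lay apart from the other 10.

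**Figure D2:**
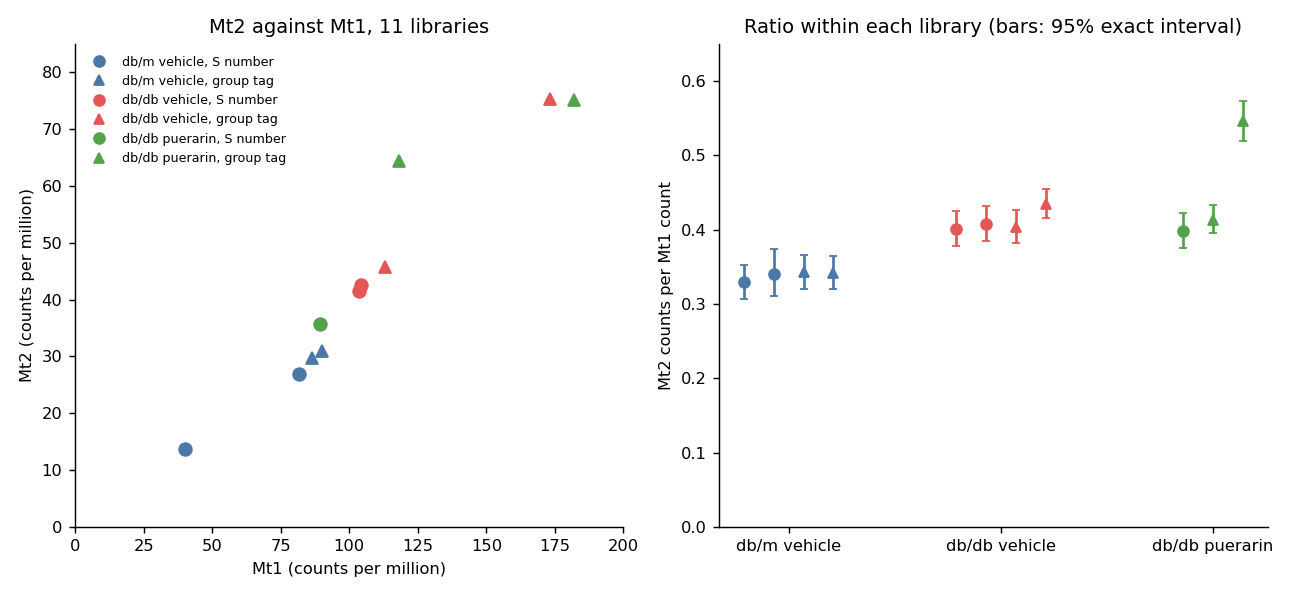
Left, Mt2 against Mt1, both in CPM, 1 point per library; right, Mt2 counts per Mt1 count in each library with 95% exact binomial intervals, by group. The db/m libraries have ratios of 0.329 to 0.343 and the db/db libraries 0.399 or more, with puerarin library 3 at 0.546.

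The annotated transcripts of Mt1 and Mt2 share no run longer than 20 bases, and no 50-base stretch of either occurs in a transcript of another gene. In GENCODE M21, however, exons of Gm45774 on the opposite strand cover 432 of 588 exon bases of Mt2. No source used here says whether counting used strand, so reads of the pair cannot be told apart in these counts. Exons on the opposite strand also overlap Keap1 (Gm16754, 510 of 4693 bases) and Gclm (Gm17494, 296 of 6291 bases). Gm6061 overlaps Gclm on the same strand (244 of 6291 bases), which counting by strand would not separate. Of the 50-base stretches of Gclm, 0.776% occur in transcripts of other genes.

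Nfe2l2 (mm10 chr2:75675512-75704663, minus strand) was higher in db/db vehicle glomeruli by a small and even amount. It was at 65.3, 66.8, 70.9 and 63.5 CPM in the db/m libraries, at 83.4, 73.1, 78.4 and 79.3 CPM in db/db vehicle and at 75.6, 71.5 and 76.9 CPM in puerarin. No db/db library reached down to the db/m range. The log2 fold change of db/db vehicle over db/m vehicle was 0.24 (SE 0.07, edgeR adjusted p = 0.283), and it stayed between 0.20 and 0.28 over the 22 alternatives without a call. Within the S-number libraries the difference in mean log2 CPM was 0.24 and within the group-tag libraries 0.23. Nfe2l2 is counted on 2 transcripts, and the noncoding one had 2.72% to 11% of the coding one's counts. Its highest share was in puerarin library 2. With the myeloid level Nfe2l2 had r = 0.52 (permutation adjusted p = 0.498) and rho = 0.76 (adjusted p = 0.0629) over the 11 libraries.

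Keap1, the adaptor that presents NRF2 to a ubiquitin ligase, was level. It lay between 202 and 260 CPM in db/m, between 204 and 231 CPM in db/db vehicle and between 209 and 220 CPM in puerarin libraries. The log2 fold change of db/db vehicle over db/m vehicle was −0.02, with an interval of −0.22 to 0.18. Keap1 and Txnrd1 each have 4 transcripts with nearly equal counts, at 95.02% or more and 91.8% or more of the highest, so their sums count shared reads several times. Per length, on the highest transcript of each gene, Nfe2l2 was at 25.5 CPM per kb and Keap1 at 12.8 in db/m glomeruli.

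Hmox1, heme oxygenase 1, degrades heme to biliverdin, carbon monoxide and iron. It was at 13.4, 11.8, 11.8 and 12.8 CPM in the db/m libraries, at 15.7, 16.1, 25.8 and 13.5 CPM in db/db vehicle and at 17.3, 15.2 and 15.4 CPM in puerarin. The groups did not overlap, by a narrow margin between db/m S184 and db/db vehicle 3. The log2 fold change of db/db vehicle over db/m vehicle was 0.51 (SE 0.18, edgeR adjusted p = 0.368). Without db/db vehicle library 1 it was 0.26 (adjusted p = 0.297). That library also held the most myeloid transcripts, with the 15 markers summing to 1221 CPM against at most 323 CPM in the other 10 libraries, and the macrophage genes C1qa at 93.3 CPM and Adgre1 at 21.6 CPM. Over the 11 libraries Hmox1 had r = 0.80 with the myeloid level (permutation p = 0.0157, adjusted p = 0.11) and rho = 0.50 (p = 0.123). Without the 2 libraries farthest from the median myeloid level, db/db vehicle 1 and db/m 2, r was 0.07, so the relation rests on those libraries. Bulk counts do not separate more cells of a type from more RNA per cell.

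The enzyme genes of glutathione and thiol defence were less uniform. Gclc and Gclm encode the catalytic and modifier subunits of glutamate-cysteine ligase, which starts glutathione synthesis. Gclc was at 65.0, 43.4, 68.4 and 67.4 CPM in db/m, 52.0, 51.3, 62.3 and 99.5 CPM in db/db vehicle, and 39.3, 71.1 and 71.9 CPM in puerarin libraries. Gclm was at 42.3, 30.3, 27.8 and 29.6 CPM in db/m, 30.0, 33.5, 25.2 and 38.8 CPM in db/db vehicle, and 25.0, 24.9 and 27.3 CPM in puerarin libraries. The log2 fold changes of db/db vehicle over db/m vehicle were 0.09 (SE 0.17) for Gclc and −0.02 (SE 0.16) for Gclm, and both changed sign under some settings.

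Over the 11 libraries Gclm varied with the proximal tubule level, with r = 0.92 (permutation p = 8e-05, adjusted p = 0.00084) and rho = 0.85 (p = 0.00121, adjusted p = 0.0127). Without the 2 libraries farthest from the median, db/m S184 and db/db vehicle 3, r was 0.79, and within the 6 group-tag libraries it was 0.89. Puerarin had the lowest group mean of Gclm, with proximal tubule levels between −0.42 and −0.30 in its 3 libraries. Of the 15 proximal tubule markers 9 were higher and 6 lower on puerarin than in db/m vehicle, with Kap at −3.39. Loop and distal tubule levels were 0.60 and 0.53 in puerarin libraries 2 and 3, and collecting duct levels 0.70 and 0.88. In S144 these were −1.73 and −1.88. Whether the Xist and Ddx3y pattern of libraries 2 and 3 goes with their proximal tubule level was not tested. Library 1 of db/db vehicle, with Gclm at 25.2 CPM, was below puerarin library 3 and had a proximal tubule level of −1.14. The part of tubule content in the Gclm values of the groups was not tested apart from the fit with a tubule term. That fit gave −0.19 (edgeR adjusted p = 0.365) for puerarin over db/m vehicle against −0.31 without the term. The proximal tubule markers then had a median of 0.52, against 0.12 without the term, so they were not levelled. Of the 20 relations of a member with a marker level, Gclm with the proximal tubule was the 1 whose adjusted Pearson p was under 0.05. For Mt2 r with the proximal tubule level was −0.01 over the 11 libraries and 0.51 within the 6 group-tag libraries, and for Mt1 it was 0.04 and 0.58.

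**Figure D3:**
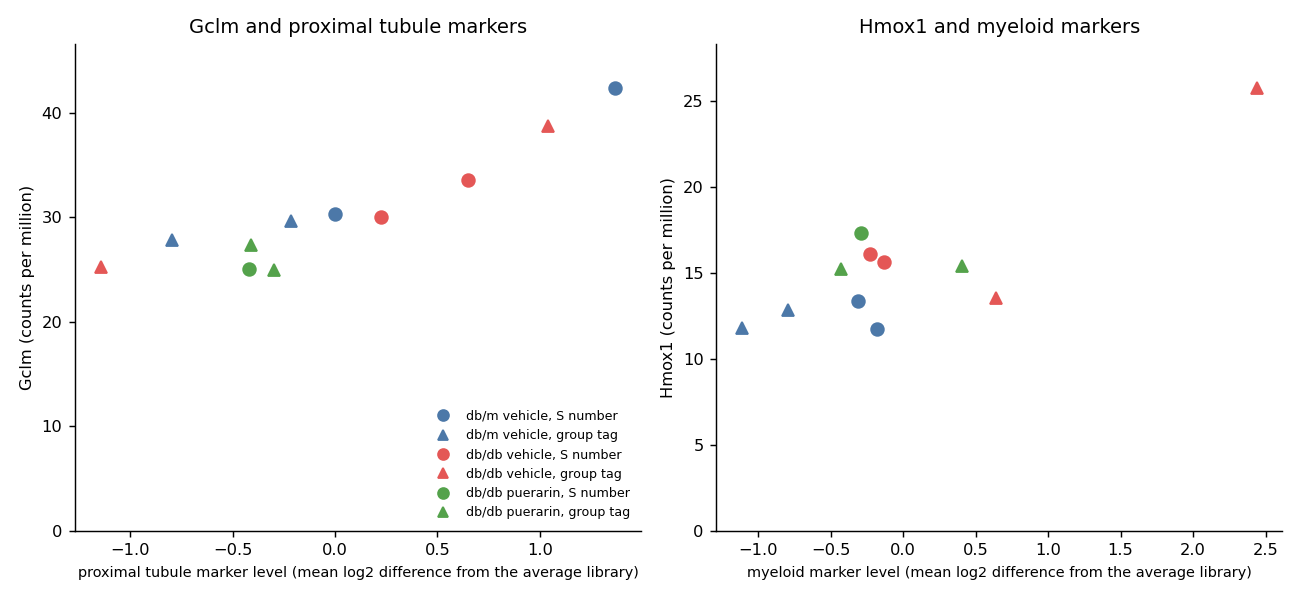
Gclm against the proximal tubule marker level (left) and Hmox1 against the myeloid marker level (right), 1 point per library; vertical axes are CPM from 0 and horizontal axes the mean log2 difference of 15 markers from the average library. Gclm is higher in libraries with a higher tubule level over the 11 libraries, and db/db vehicle library 1, at a myeloid level of 2.44, holds the highest Hmox1 value, 25.8 CPM.

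Srxn1 encodes sulfiredoxin, which repairs over-oxidized peroxiredoxins. It was at 35.3, 24.02, 35.1 and 40.7 CPM in db/m, 34.4, 43.2, 40.7 and 62.2 CPM in db/db vehicle, and 24.3, 48.2 and 47.2 CPM in puerarin libraries, so the groups overlapped. Its log2 fold change of db/db vehicle over db/m vehicle was 0.41 (SE 0.18, edgeR adjusted p = 0.471). Txnrd1, cytosolic thioredoxin reductase, lay between 237 and 263 CPM in db/m, between 237 and 296 CPM in db/db vehicle and between 214 and 277 CPM in puerarin libraries. Nqo1, a quinone reductase often used as a readout of NRF2, was the least abundant member per length, at 5.22 CPM per kb in db/m glomeruli. It was at 11.7, 6.69, 6.54 and 7.51 CPM in db/m, 6.99, 9.70, 9.49 and 14.4 CPM in db/db vehicle, and 4.71, 16.7 and 10.7 CPM in puerarin libraries. Its puerarin libraries thus held both the lowest and the highest of the 11 values, and the log2 fold change of db/db vehicle over db/m vehicle was 0.27 with an interval of −0.50 to 1.04. Over the 22 alternatives it ran from 0.083 without db/m library 2 to 0.97 without db/m S184 and S185, with no call.

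Of the 10 genes, 8 had a higher and 2 a lower fitted value in db/db vehicle than in db/m vehicle. Mt2, Mt1, Nfe2l2, Hmox1 and Srxn1 had an unadjusted p under 0.05, all higher, against 5.5% of all genes. Mt2, Mt1, Nfe2l2 and Hmox1 were higher without overlap between groups, against 2.48% of all genes. The members were chosen with earlier results of these data known, so these counts beside all genes are a description and not a test. The median log2 fold change was 0.25 over the members and 0.02 over all 13734 genes, of which 53.5% had a higher value. Without db/m S184 and S185 log2 fold changes were 1.09 for Mt2, 0.75 for Mt1, 0.22 for Nfe2l2, 0.58 for Hmox1 and 0.56 for Srxn1. The median over the members was then 0.43, with no call. In that setting the 32 tubule markers had a median of 0.79, against 0.35 with all libraries. The myeloid markers had a median of 2.38, against 0.95. Over both db/db arms together, Mt2, Nfe2l2 and Hmox1 were above each db/m library, against 1.23% of all genes, a count added after the values were seen.

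Differences between db/db puerarin and db/db vehicle were small beside the spread of the libraries. The fitted value was lower on puerarin for 9 of 10 genes and higher for Mt2, with a median log2 fold change of −0.08 against −0.02 over all genes. No member was called by edgeR, where 0% of all genes were, nor by DESeq2. None had an unadjusted p under 0.05, against 4.21% of all genes, and all 10 overlapped between the groups. The log2 fold change was 0.04 for Mt2, with an interval of −0.47 to 0.56, and −0.04 for Mt1, with an interval of −0.58 to 0.50. These intervals hold both a moderate decrease and a moderate increase. The lowest values were −0.30 (SE 0.20) for Srxn1 and −0.29 (SE 0.17) for Gclm, each with an adjusted p of 0.967. With the tubule level as a term they were −0.021 for Srxn1 and −0.066 for Gclm, and without db/db vehicle library 3 they were −0.18 and −0.11. The tubule term did not level the proximal tubule markers, whose median was 0.63 with it. Without puerarin libraries 2 and 3, which leaves S144 as the lone puerarin library and assumes that it varies like the other groups, the values were −0.67 for Srxn1, −0.42 for Gclm, −0.21 for Mt2 and −0.18 for Mt1, and none was called. S144 had the lowest tubule level of the 11 libraries, −1.34, and the lowest Gclc, Nqo1 and Txnrd1 values. The part of that level in these values was not tested apart from the fit with a tubule term, which concerns differences between groups.

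Against db/m vehicle, which is also the control of the first comparison, puerarin-treated db/db glomeruli had Mt2 at 1.07 on the log2 scale (SE 0.23, adjusted p = 0.121 by edgeR) and Mt1 at 0.69 (SE 0.24, adjusted p = 0.34). These were the 2 members with an unadjusted p under 0.05, against 5.37% of all genes for higher values. No member was among the 0.182% of genes that edgeR called. DESeq2 called Mt2 (adjusted p = 0.00146), among 2.16% of all genes. With the tubule term edgeR called Mt2 (log2 fold change 1.25, adjusted p = 0.00218) and Mt1 (0.86, adjusted p = 0.0244), among 2.86% of all genes. In that fit the proximal tubule markers were at a median of 0.52, with 2 of 15 called. Mt2, Nfe2l2 and Hmox1 were higher without overlap, against 3.73% of all genes, and Gclm was lower without overlap, against 3.92%. Without puerarin libraries 2 and 3 the value was 0.82 for Mt2 (adjusted p = 0.767) and 0.55 for Mt1, and without db/m S184 and S185 it was 1.122 for Mt2 and 0.71 for Mt1.

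**Figure D4:**
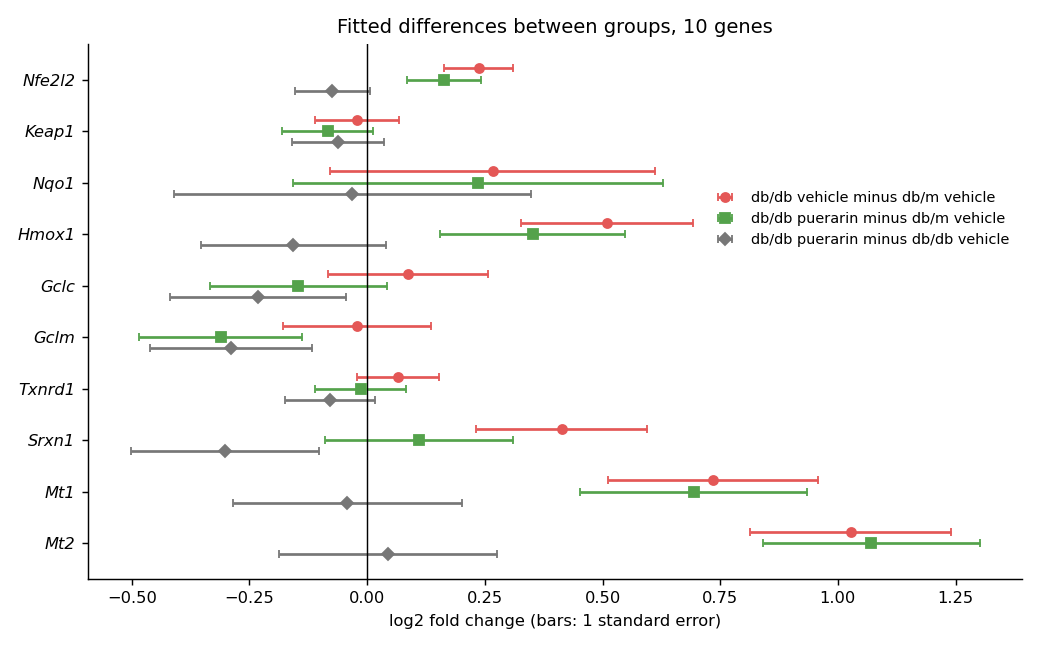
Fitted log2 fold changes (horizontal axis, bars 1 standard error) of the 10 genes in 3 comparisons. Both comparisons with db/m vehicle place Mt2 near 1 and Mt1 near 0.7, and puerarin against db/db vehicle gives values between −0.30 and 0.04.

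Within name forms the direction of the metallothionein difference between db/db and db/m vehicle was the same. Mt2 in db/db vehicle exceeded db/m vehicle by 1.13 in mean log2 CPM among S-number libraries (2 against 2) and by 0.95 among group-tag libraries (2 against 2), and Mt1 by 0.86 and 0.66. For puerarin over db/db vehicle the sign differed between the forms, at −0.24 and 0.25 for Mt2 and at −0.22 and 0.07 for Mt1. For Nqo1 in db/db vehicle over db/m vehicle the forms differed in sign, at −0.10 and 0.73. The same held for Keap1 (0.15 and −0.19), Gclc (−0.04 and 0.21), Gclm (−0.17 and 0.12) and Txnrd1 (−0.02 and 0.15). Nfe2l2, Hmox1 and Srxn1 were higher in both forms. For puerarin over db/m vehicle Nqo1 was at −0.90 with 1 S-number puerarin library and at 0.93 with the 2 group-tag ones. A test of the interaction of group and name form called no member, and 0.0437% of all genes. The smallest interaction p among members was that of Nqo1, 0.0255 (edgeR adjusted p = 0.987), and it was the 1 member under 0.05 without adjustment.

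None of the other NRF2 target genes passed the test in db/db vehicle glomeruli. Of 38 listed genes 34 were measured, and 29 had a higher and 5 a lower fitted value in db/db vehicle than in db/m vehicle, with a median log2 fold change of 0.19. Over all genes 53.5% had a higher value and the median was 0.02. Of the 34, 4 were higher at an unadjusted p under 0.05, against 5.5% of all genes. The list, like the members, was chosen with earlier results of these data known. Markers of other cells differed in the same direction. Of 32 tubule markers 26 were higher in db/db vehicle (median 0.35), and all 15 myeloid markers were (median 0.95). With the tubule level as a term, 26 of the 34 NRF2 targets were higher, with a median of 0.10. Without db/db vehicle library 3, where 16 of 32 tubule markers were higher, it was 27 with a median of 0.13. Without db/m S184 and S185, 29 of the 34 NRF2 targets were higher, with a median of 0.28. In that setting 29 of 32 tubule markers were higher (median 0.79), and so were all 15 myeloid markers (median 2.38). These settings were added for the lists after the data were seen, and the part of myeloid content was not tested. The smallest p-values belonged to Abcc4, an efflux transporter (log2 fold change 0.45, SE 0.11, edgeR adjusted p = 0.182), and Ftl1, ferritin light chain (0.38, SE 0.14, adjusted p = 0.376). Abcc4 did not overlap between groups, with 65.3 to 88.6 CPM in db/m and 92.9 to 116 CPM in db/db vehicle libraries. On the lower side the smallest p-values were those of Gstp1 (−0.15, adjusted p = 0.645) and Sqstm1 (−0.10, adjusted p = 0.756). For puerarin against db/db vehicle 9 of the 34 were higher and 25 lower, with a median of −0.12 and no call, while 44.7% of all genes were higher. This comparison shares the db/db vehicle libraries with the first. In it 31 of 32 tubule markers were lower (median −0.43), and so were all 15 myeloid markers (median −0.90). With the tubule term 20 of the 34 NRF2 targets were higher and 14 lower (median 0.03), so the direction of the list did not hold. That term did not level the proximal tubule markers, of which 12 were then higher and 3 lower (median 0.63). Values from that fit are therefore not free of tubule content. Without db/db vehicle library 3 the counts of the NRF2 targets were 13 and 21 (median −0.04). Without puerarin 2 and 3, which leaves S144 as the lone puerarin library, these counts were 3 and 31 (median −0.23). All 32 tubule markers were lower in that setting (median −1.41). Of the 34, 2 were lower and 0 higher at an unadjusted p under 0.05, against 4.21% of all genes in either direction. They were Taldo1 (−0.25) and Gstp1 (−0.25), enzymes of the pentose phosphate pathway and of glutathione conjugation (each edgeR adjusted p = 0.967). On the higher side Gsta4 (0.14) and Sqstm1 (0.07) had the smallest p-values. Without puerarin 2 and 3 these 2 were at −0.11 and −0.07. Other antioxidant enzymes, such as peroxiredoxins and glutathione peroxidases, counted 16 higher and 4 lower of 20 in the first comparison (median 0.15) and 3 higher and 17 lower in the second (median −0.14), with no call in either. The tubule term gave 14 higher and 6 lower in the first (median 0.07) and turned the second to 17 higher and 3 lower (median 0.09). Without db/m S184 and S185, where the tubule markers were at a median of 0.79, the median of the first was 0.31. Without db/db vehicle 3 the medians were 0.08 and −0.03.

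Among 16 measured partners and regulators of NRF2, 5 were higher and 11 lower in db/db vehicle than in db/m vehicle, with a median log2 fold change of −0.04 and no call. Maff, a small MAF protein, had the largest value, 1.27 (SE 0.37, adjusted p = 0.261). It was at 16.1, 13.2, 11.5 and 18.5 CPM in db/m and at 34.2, 66.0, 18.7 and 29.2 CPM in db/db vehicle libraries, so the groups were separate by a narrow margin. Crebbp, a histone acetyltransferase that acts as an NRF2 coactivator, was lower in db/db vehicle without overlap (−0.43, adjusted p = 0.199). On puerarin it was higher than in db/db vehicle (0.41, SE 0.12, edgeR adjusted p = 0.967). Its values were 26.0, 30.4, 31.4 and 29.5 CPM in db/m, 22.2, 18.2, 24.1 and 22.8 CPM in db/db vehicle and 29.8, 25.6 and 32.4 CPM in puerarin libraries. Sesn2, a stress-induced sestrin, had 0.42 in the first comparison and −0.49 in the second (edgeR adjusted p = 0.372 and 0.967). Both comparisons use the same db/db vehicle libraries, so opposite signs in them are not independent. Crebbp and Sesn2 were named for p-values among the smallest of the list. In the second comparison 1 of the 16 was higher and 1 lower at an unadjusted p under 0.05, against 4.21% of all genes in either direction.

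Metal handling genes did not lean with the metallothioneins. Of 20 listed, 15 were measured, with 6 higher and 9 lower in db/db vehicle, a median of −0.05 and no gene of the list under an unadjusted p of 0.05. Mtf1 itself had a log2 fold change of −0.14 (SE 0.10, adjusted p = 0.676). The zinc importer genes Slc39a10 and Slc39a8 had 0.31 (adjusted p = 0.485) and −0.50 (adjusted p = 0.592). Of 11 measured genes of heme and iron handling, 9 were higher and 2 lower (median 0.21, no call). Ncoa4, the receptor for ferritin turnover, was higher without overlap (0.40, SE 0.11, adjusted p = 0.22), and Tfrc, the transferrin receptor, was at −0.95 (SE 0.41, adjusted p = 0.456). Of 15 glucocorticoid-responsive genes 9 were higher and 6 lower (median 0.13, no call), with Angptl4 at 0.85 (adjusted p = 0.265), Fkbp5 at 1.16 (adjusted p = 0.336) and Hsd11b1 at −1.15 (adjusted p = 0.43). Without db/m S184 and S185 several of these values were smaller or turned, at 0.38 for Fkbp5 (adjusted p = 0.71), 0.51 for Angptl4, −0.31 for Hsd11b1, −0.03 for Slc39a8 and 0.14 for Tfrc. The median was then 0.22 for the glucocorticoid-responsive genes, 0.39 for heme and iron genes and 0.03 for metal handling genes. The 32 tubule markers had a median of 0.79 in that setting.

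**Figure D5:**
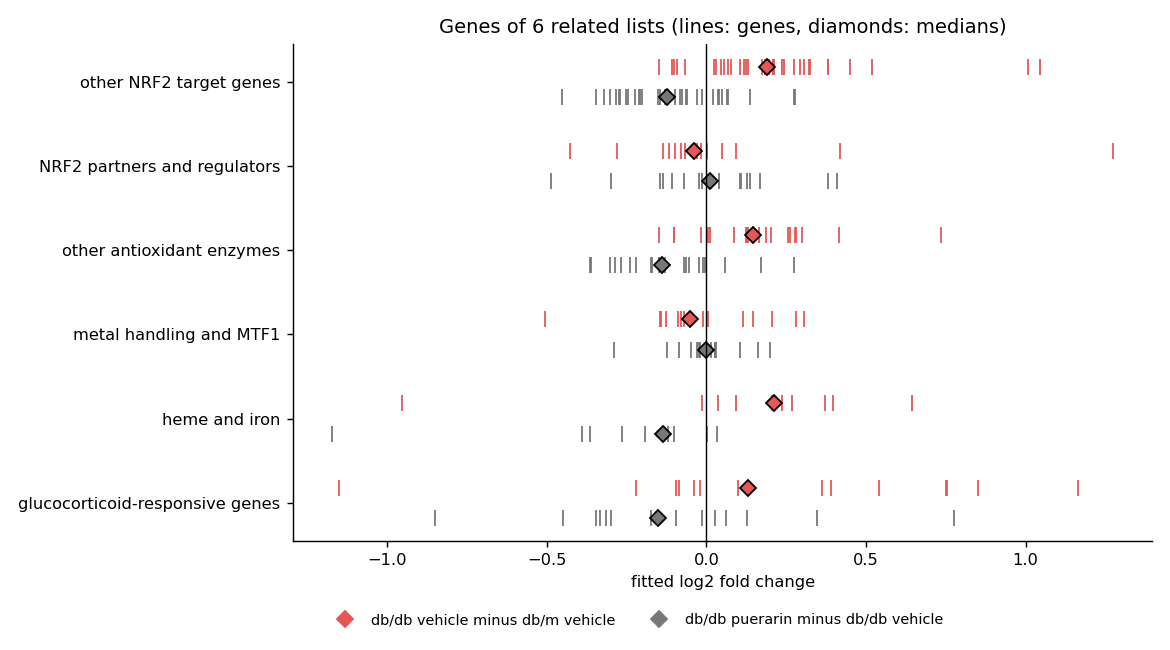
Fitted log2 fold changes (horizontal axis) of the measured genes of 6 related lists, in db/db vehicle over db/m vehicle (red) and db/db puerarin over db/db vehicle (grey); lines are genes and diamonds medians, and no gene shown was called. Medians of the other NRF2 targets are 0.19 and −0.12, the second of which turns to 0.03 with the tubule term.

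The genes whose log2 CPM was most like that of Mt2 over the 11 libraries, members left out, were Spink8 (r = 0.94), Fetub (0.94), 4932441J04Rik (0.94), Lpar2 (0.93) and Zfp523 (0.93). For Hmox1 they were Sla (0.93), Uhrf1 (0.93), Fabp5 (0.93), Lyl1 (0.93) and Cyth4 (0.92). For Nqo1 they were Parl (0.95), Nup210 (0.94), Dlg3 (0.94), Smim4 (0.93) and Hspa9 (0.93). These are the highest of all genes over 11 points that share library content and depth, and are given as a description. Among the members themselves the next closest pair after Mt1 and Mt2 was Gclc with Txnrd1 (r = 0.91), followed by Gclc with Srxn1 (0.88), and Hmox1 with Gclm was the most opposed (−0.43).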

How the data were processed

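Reads of 11 glomerular libraries had been aligned by the authors; the submitters' processing notes name BWA, limma and mm10 without versions. How reads were counted, and whether by strand, is not stated in these sources. The deposited table holds counts per RefSeq transcript and log2 values, which differ from the log2 of the deposited counts by 1 fixed amount in each library. Counts were used. The 10 single-library files hold the same log2 values as the table. Of 15 count columns, 4 match no sample and were not used. Blank cells (13) were read as 0, and 50 symbols turned into dates were restored by RefSeq accession. Counts were summed per symbol, which counts shared reads more than once where transcripts overlap.

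Differences were fitted with edgeR 4.0.16 (TMM factors, quasi-likelihood, R 4.3.3) with group and name form as terms over all 11 libraries and 13734 genes with a count of at least 1 in at least 3 libraries, and called at a Benjamini-Hochberg adjusted p under 0.05. There were 7 residual degrees of freedom. Intervals of fitted differences are 95% t intervals. Marker levels are means of log2 CPM (prior count 2) relative to the average library. The scripts were tested on simulated data. For each comparison 22 alternative settings were run, among them DESeq2 1.42.0, other scalings, a tubule term, a replicate block and each library left out. Libraries of a group differed by more than sampling noise in every pair.

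The members and lists were chosen with earlier results of these data known. Named were all members, called list genes and the 2 smallest p-values in each direction per list in the first 2 comparisons (not all of them are printed), and the 5 genes most correlated with Mt2, Nqo1 and Hmox1. Sequences came from RefSeq tables on GRCm38.p6, where 8 of 10 members matched. Promoters of Hmox1 and Gclc were not analysed here.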

Additional observations from a re-analysis of the deposited data

Results flagged for a closer look

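Within the groups of 4 libraries, 22 sets of values were checked for a library far from the others, of which chance flags about 1 in 20, and 5 stood out. Mt1 in db/db vehicle library 3 was at 173 CPM and Mt2 in the same library at 75.3 CPM, each far above the other 3 libraries of the group. Mt1 in db/m library S185 was at 40.1 CPM and Gclc there at 43.4 CPM, each far below the other 3. The tubule level was 1.05 in db/db vehicle library 3 and −0.90 in db/m library S185, the highest and the lowest of their groups. The proximal tubule level of S185 alone was −0.00062, against −0.80 in db/m library 2. The part of tubule content in these values was not tested apart from the fit with a tubule term, which concerns differences between groups. The Mt2 to Mt1 ratio in db/m library S184, 0.329, was lowest of its group, although the 4 ratios of that group span only 0.329 to 0.343 and its 95% exact interval, 0.307 to 0.353, holds the other 3.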

How the results depend on the processing

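Of 794 alternative values, 740 kept their direction and call or moved by less than the spread, 6 gained a call, 43 changed sign, none of them a called value, and 5 were counts of members called that differed, given next. The number of members called in db/db vehicle against db/m vehicle was 0, and 1 under DESeq2, 1 with the tubule term and 0 to 1 with a library left out (1 without db/db vehicle 1). In puerarin against db/m vehicle it was 0, and 1 under DESeq2 and 2 with the tubule term. Why these settings differ was not tested. Among log2 fold changes that changed sign, in db/db vehicle against db/m vehicle Gclc was −0.039 with the tubule term, and Gclm 0.17 without db/m S184 and S185. For puerarin against db/db vehicle the tubule term gave Gclc 0.027, Mt1 0.25, Nqo1 0.34 and Txnrd1 0.011; leaving out the name form gave Mt1 0.071 and Nqo1 0.079; and leaving out puerarin 2 and 3 gave Hmox1 0.057 and Mt2 −0.21. In puerarin against db/m vehicle Txnrd1 was 0.020 without the name form, 0.030 with the tubule term and 0.092 without db/m S184 and S185, Gclc 0.032 without the latter, and without puerarin 2 and 3 Nqo1 was −0.73 and Srxn1 −0.26, with a median over members of −0.10.

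With a library left out, ranges in db/db vehicle against db/m vehicle were −0.061 to 0.26 for Gclc, −0.17 to 0.13 for Gclm and −0.064 to 0.051 for Keap1. For puerarin against db/db vehicle they were −0.28 to 0.13 for Hmox1, −0.25 to 0.089 for Mt1, −0.12 to 0.19 for Mt2, −0.43 to 0.41 for Nqo1 and −0.12 to 0.019 for Txnrd1. In puerarin against db/m vehicle they were −0.20 to 0.0038 for Gclc, −0.12 to 0.0083 for Keap1, −0.14 to 0.72 for Nqo1 and −0.058 to 0.086 for Txnrd1.

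The title numbers were tried as a replicate block in place of the name form. Numbers are shared by at most 2 pairs in a comparison and no label ties them to animals or batches. Deviations of the 4 same-numbered pairs correlated at 0.21 to 0.57, against −0.21 to 0.48 in other pairs of group-tag libraries. The replicate block called 56 genes in place of 6 in db/db vehicle against db/m vehicle, 49 in place of 25 in puerarin against db/m vehicle and 0 in both fits in puerarin against db/db vehicle, with no member called. Under the block Mt2 was 1.18 over db/m in db/db vehicle (adjusted p = 0.0718), Gclm 0.026 and Keap1 0.034, and for puerarin against db/db vehicle Hmox1 was 0.13 and Mt2 −0.14. Over all genes DESeq2 called 290, 15 and 297 genes in the 3 comparisons against 6, 0 and 25. With 3 or 4 libraries a group, the members with wide intervals, such as Nqo1, limit what can be detected.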
